A study of Arabidopsis thaliana with 12 samples.

Results

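The 24 genes described here are single-gene loci of Arabidopsis thaliana whose array signal was higher after proline than on water in each of 3 pairs of samples. They were taken from 691 loci that the array measured with a single-gene probe. Proline plants were wild type of the ecotype Wassilevskija, given 100 mM proline for 48 h, an amount that the labels call toxic, and they gave 6 samples. Water plants were wild type of the same ecotype, which the labels also call untreated, and they gave 6 samples. The labels name no tissue, age or growth condition, and nothing in them says that samples of a group came from separate plants.

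Proline is both a building block of proteins and a solute that plants store under drought and salt. Surplus proline is oxidised in mitochondria by proline dehydrogenase, which passes electrons to the respiratory chain, and plants that cannot clear it are damaged by it. The question of the series was which transcripts differ when proline accumulates. None of the 18 listed loci of proline synthesis, breakdown, transport and their bZIP regulators was measured by a single-gene probe. Probes with several genes were searched by locus code only. None was found there, but a gene listed by its symbol would have been missed. Of 16 marker genes of leaf, root, seed and flower 1 was measured by a single-gene probe, the leaf antenna gene AT2G34420. The tissue could therefore not be checked against its markers.

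The members were chosen from the measured values. Samples 1 and 2 of a group form pair 1, samples 3 and 4 form pair 2, and samples 5 and 6 form pair 3. Each value above 0 was put on the log2 scale and the median of its array was subtracted. A locus was kept if its mean was at least 0.5 log2 units higher in proline than in water in all 3 pairs, with a value above 0 in at least 4 samples of each group. Of 608 loci that passed the filter on zeros, 34 met this threshold, which is 5.59%. Of these 34, 8 were left out by name and 3 for a high rank in water, 1 of them for both reasons, which leaves 24. The same threshold was met downwards by 64 of the 608 loci, or 10.5%. Among 2437 probes without a single gene name, 172 met it upwards (7.06%) and 245 downwards (10.1%). Because the members were chosen on the difference between proline and water, that difference is described below without a test.

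Levels are given as multiples of the array median, meaning the deposited intensity divided by the median of all values above 0 on that array. These multiples set a gene's samples against each other and do not rank genes, because each probe has its own brightness. All 24 loci had 1 probe each. A difference is always proline minus water on the log2 scale, and a mean difference is the mean of the 3 pair differences with its SD (n = 3 pairs). In every one of the 12 samples the nearest sample of its group was its pair partner, so partners may repeat a measurement of the same material. More probes were listed at 0 in proline, with 352 to 424 of 3439 probes per sample, against 153 to 235 in water. Beyond a refit with values of 0 kept and 0.01 added, given at the end, the part of these zeros in the differences was not tested. Of the 24 loci, 23 had a value above 0 in all 12 samples.

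Of the 24 loci, 18 had a mean difference of at least 1 log2 unit, and the mean differences ran from 0.62 to 2.39 with a median of 1.27. Over all 608 loci the median was -0.20. In 10 of the 24 loci every proline sample lay above every water sample, a pattern held by 5.26% of all loci tested and 5.75% of all features. Taken by replicate number, 20 of the 24 loci were higher in proline in all 6 comparisons of a proline sample with the water sample of its number, a pattern held by 11.5% of the 608 loci. The rule had used these values, so nothing is read from either count. The gene table gives 1 of the 24 loci a symbol, FATB. For 16 of them a protein role is known well enough to be named here as background, and they are described by these roles, which were assigned after the members were known.

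**Figure D1:**
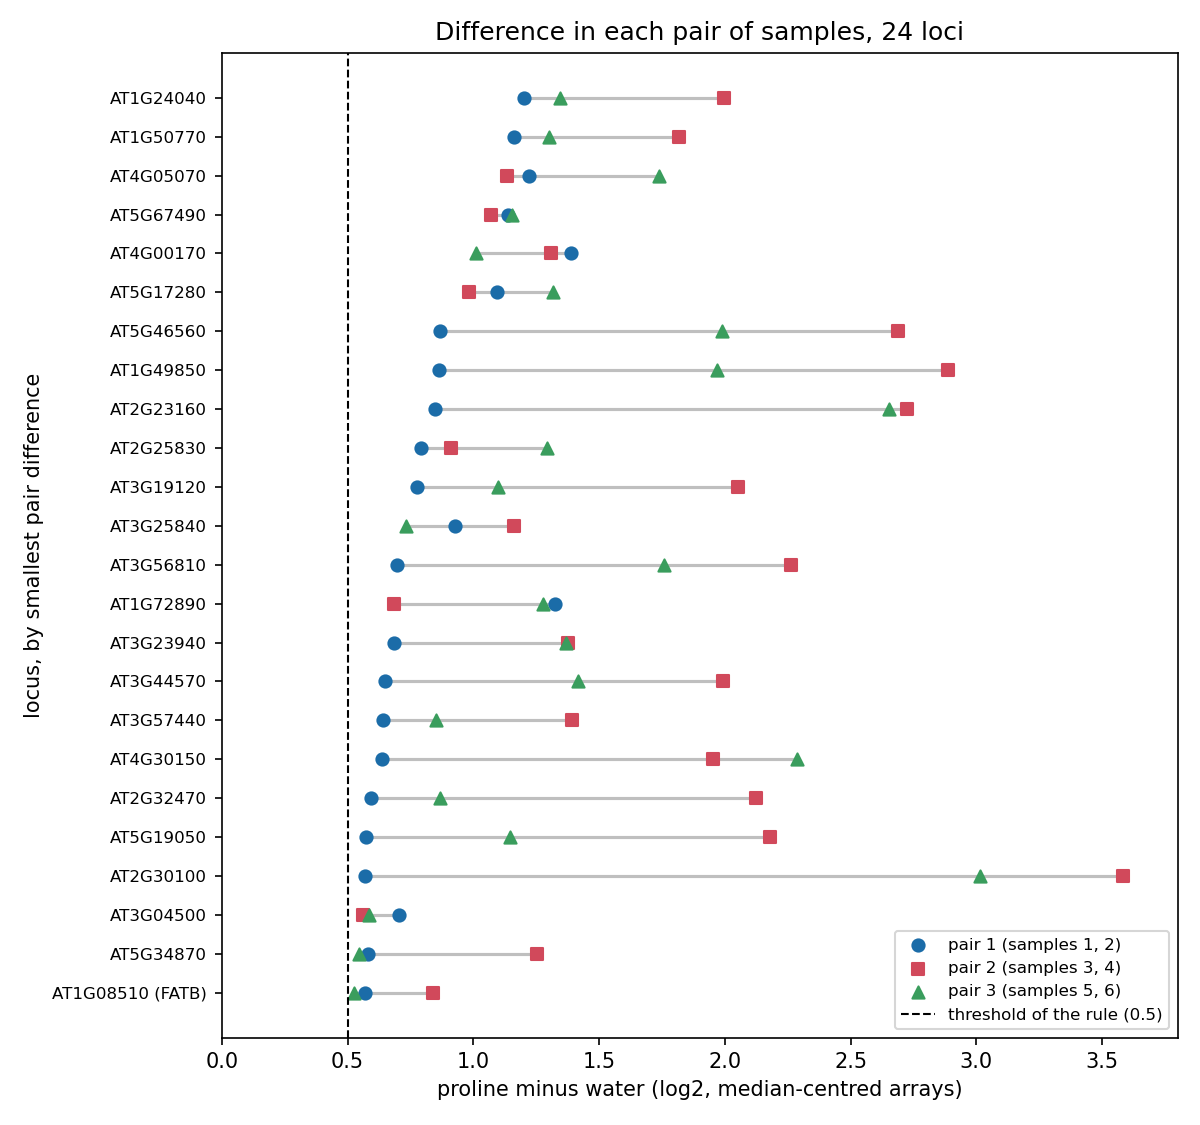
Proline minus water difference (x axis, log2, median-centred arrays) in each of the 3 pairs for the 24 loci (y axis, ordered by their smallest pair difference). Each symbol is a difference between pair means and the grey line spans the 3 pairs; AT5G67490 and AT3G04500 have nearly the same difference in every pair, and AT2G30100 spans from 0.57 to 3.58.

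Among the 4 genes of metabolism and organelle enzymes, the mean differences were 0.64 to 1.51. No overlap between groups was shown by 2 of the 4, against 5.75% of all features. The rule favours this pattern, so its counts by role are description only and do not set the roles apart. AT1G24040 encodes a plastid protein of the GNAT family of acetyltransferases, enzymes that move acetyl groups onto proteins or small molecules. Its level had a lowest, median and highest value of 3.70, 6.65 and 7.83 times the array median in proline, against 1.03, 2.62 and 3.24 in water. All 6 proline samples lay above all 6 water samples. The differences were 1.20, 2.0 and 1.35 in pairs 1, 2 and 3, and the mean of 1.51 ± 0.42 corresponds to 2.86-fold. AT1G24040 had the largest smallest-pair difference of the 24 loci. Both groups had their lowest samples in pair 2, where the pair mean was 4.22 in proline and 1.06 in water.

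AT5G67490 is the plant counterpart of SDHAF4, a factor that helps assemble succinate dehydrogenase, the enzyme shared by the citric acid cycle and the respiratory chain. Its level was 1.60, 1.76 and 3.92 times the array median in proline (lowest, median, highest), and 0.244, 1.26 and 2.42 in water. The pair differences were nearly equal at 1.14, 1.07 and 1.15, but the groups overlapped, and 2 of 6 proline samples lay above all water samples. The equality in pair 1 rests on partners that disagreed. Water sample 1 lay at 0.244 and water sample 2 at 2.42, and without water sample 1 the difference of pair 1 was -0.52. In pair 3 both proline samples were high, with a pair mean of 3.84 against 1.73 in water.

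FATB (AT1G08510), the plastid thioesterase that releases saturated fatty acids from acyl carrier protein, was the member closest to the threshold. It had 1.59, 1.84 and 2.19 times the array median in proline, against 0.993, 1.20 and 1.35 in water. The groups did not overlap, although the differences were small, at 0.57, 0.84 and 0.53 in the 3 pairs (mean 0.64 ± 0.17, 1.56-fold). Proline pair means stayed between 1.77 and 1.88, and water pair means between 1.03 and 1.30. AT3G23940, the dihydroxyacid dehydratase of branched-chain amino acid synthesis, had 1.94, 4.05 and 4.89 times the array median in proline and 0.982, 1.73 and 2.48 in water. Its differences were 0.69, 1.38 and 1.37, and 5 of 6 proline samples lay above all water samples.

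In the group of RNA, ribosome and organelle gene expression, the mean differences ran from 0.62 to 2.39. No overlap was shown by 1 of the 5 genes (5.75% of all features). AT2G30100, a pentatricopeptide repeat protein of a family that mostly binds organellar RNA, had the largest mean difference of the 24 loci. In proline it had 8.27, 10.04 and 13.1 times the array median, against 0.634, 1.42 and 6.37 in water, with no overlap. The proline pair means were alike at 9.21, 9.49 and 11.5. Water samples of pair 1 were high, with a pair mean of 6.20, and those of pairs 2 and 3 were low, at 0.793 and 1.42. The pair differences were therefore 0.57, 3.58 and 3.02 (mean 2.39 ± 1.6, 5.24-fold). AT2G30100 no longer met the threshold of the rule after quantile normalization, after cyclic loess or without proline sample 1.

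AT3G25840 encodes a kinase of the Prp4 type, which phosphorylates proteins of the splicing machinery. Its level was 2.71, 3.48 and 3.72 times the array median in proline, against 1.29, 1.51 and 3.15 in water, where sample 5 was the high one. Pair differences were 0.93, 1.16 and 0.73 (mean 0.94 ± 0.22), and without water sample 6 that of pair 3 was 0.14. AT2G25830 belongs to the YebC family, named after a bacterial protein and known for roles in gene expression in bacteria and mitochondria. It had 0.918, 1.59 and 1.95 times the array median in proline and 0.405, 0.805 and 1.13 in water, with differences of 0.79, 0.91 and 1.29. Proline sample 6 alone lay within the range of the water samples.

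The other 2 genes of this group varied more between partners. AT4G30150 is related to Urb2 of yeast, a nucleolar protein of ribosome assembly. It had 0.301 to 1.06 times the array median in proline and 0.0192 to 0.504 in water, with differences of 0.64, 1.95 and 2.29. Without water sample 5, at 0.0192, the difference of pair 3 was 0.30, and without proline sample 1 that of pair 1 was 0.19. AT3G04500, a protein with an RNA recognition motif, had 0.529 to 1.81 times the array median in proline and 0.408 to 1.06 in water. Its pair differences were alike at 0.70, 0.56 and 0.58, the smallest mean of the 24 loci (0.62 ± 0.08), and without proline sample 1 that of pair 1 was -0.15.

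Genes of protein turnover, membranes, wounding and defence had mean differences of 1.10 to 2.07, and 3 of 5 showed no overlap (5.75% of all features). AT4G05070 belongs to a family of small proteins known as wound-responsive. It had 8.74, 12.7 and 23.8 times the array median in proline, and 4.14, 5.46 and 7.23 in water. No water sample reached the lowest proline sample, and partners were close in every pair. The differences were 1.22, 1.13 and 1.74 (mean 1.36 ± 0.33, 2.57-fold), and both groups had their highest pair mean in pair 3, at 23.0 in proline and 6.89 in water.

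AT4G00170 is a VAP-type protein, of a family that tethers the endoplasmic reticulum to other membranes. Its level was 3.36, 4.25 and 4.78 times the array median in proline, against 1.19, 1.82 and 2.23 in water, with no overlap. Pair differences of 1.39, 1.31 and 1.01 were among the more even ones (mean 1.24 ± 0.20). AT1G72890 is of the TIR-NBS class, relatives of the intracellular immune receptors of plants. It had 0.396 to 1.0 times the array median in proline and 0.176 to 0.818 in water, and its differences were 1.33, 0.69 and 1.28. Only 2 of 6 proline samples lay above all water samples, and without water sample 6 the difference of pair 3 was 0.27.

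AT1G49850 encodes a RING-type protein, of the class that includes many ubiquitin ligases. It had 10.01, 16.0 and 18.7 times the array median in proline, against 1.74, 2.96 and 9.34 in water. The groups did not overlap, and the water samples of pair 1 came near the lowest proline samples, which were those of pair 3. The differences were 0.86, 2.89 and 1.97 (mean 1.91 ± 1.0, 3.75-fold). AT2G23160 is an F-box protein, of the family that selects proteins for ubiquitination. In proline it had 0.442, 1.27 and 1.85 times the array median, against 0.0947, 0.235 and 0.928 in water. Its difference was 0.85 in pair 1, 2.72 in pair 2 and 2.65 in pair 3, and water pair 1, at 0.814, lay above proline pair 3, at 0.653.

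**Figure D2:**
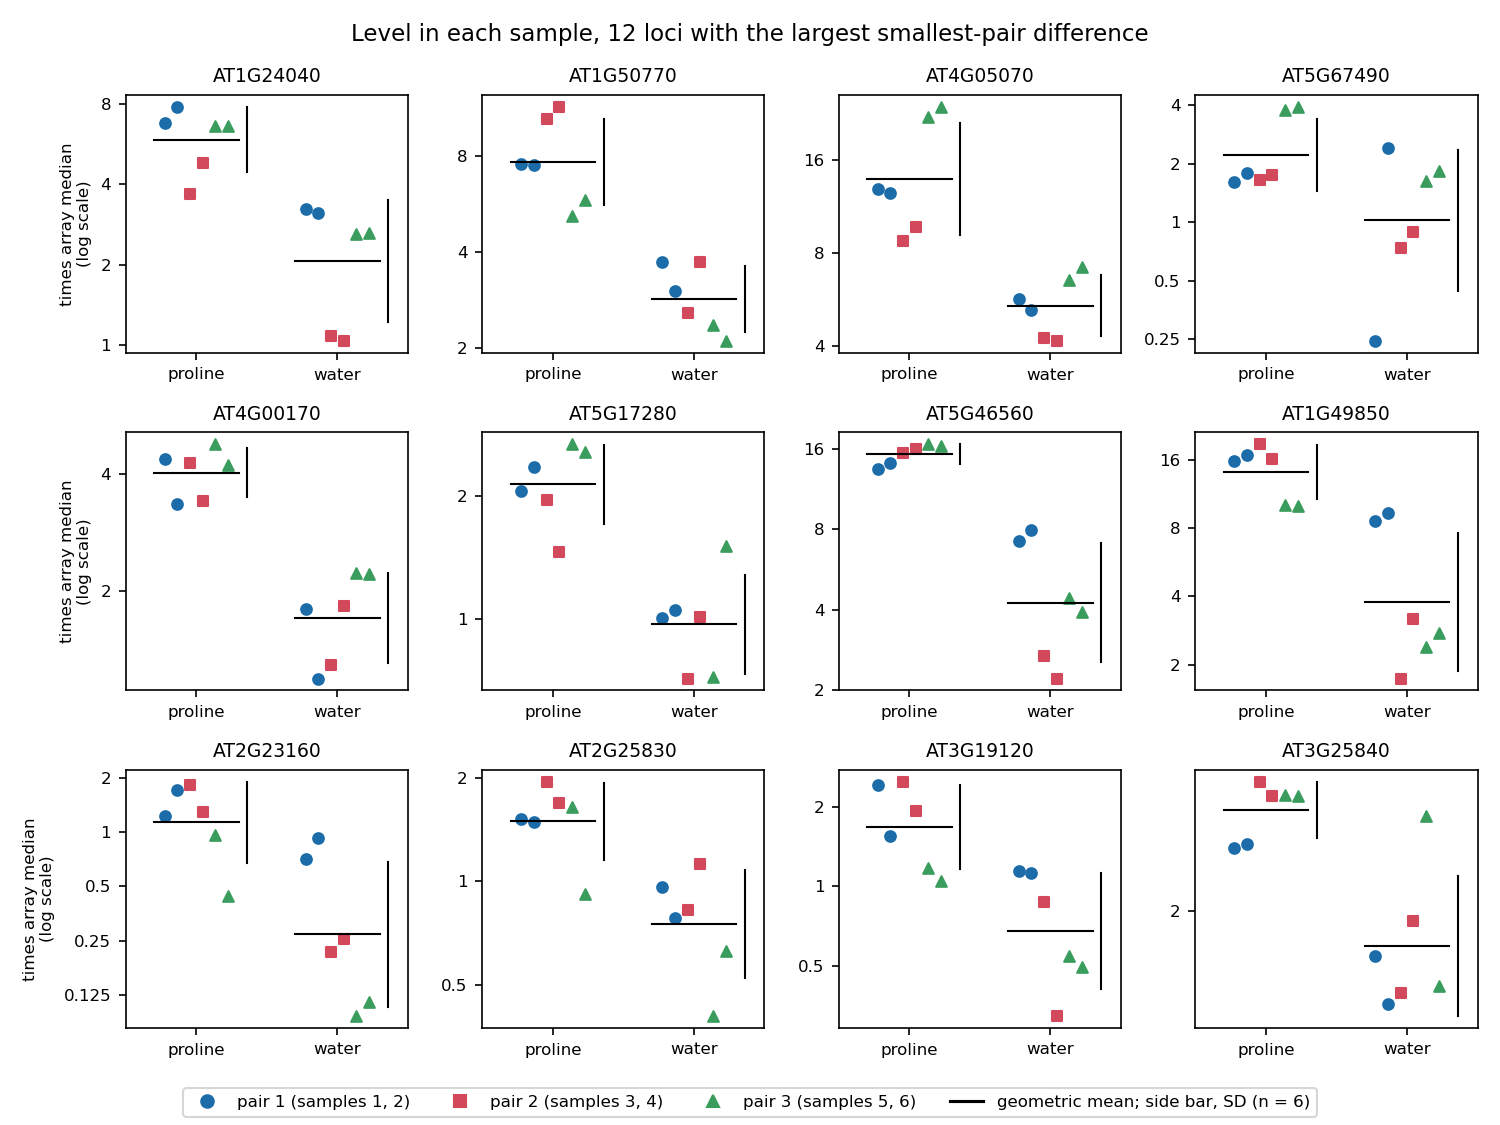
Level in each sample (y axis, multiples of the array median, log scale, its range set for each gene) for the 12 loci with the largest smallest-pair difference, proline left of water. Symbols are samples coloured by pair, horizontal lines are geometric means and side bars span 1 SD of the log2 values on either side (n = 6); in AT1G24040, AT1G50770, AT4G05070, AT4G00170, AT5G46560 and AT1G49850 the groups do not overlap.

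The remaining 2 genes with a role share domains with transposable elements. AT1G50770 carries a plant mobile domain, found in transposons and in some genes of the host. It had 5.19, 7.52 and 11.4 times the array median in proline, against 2.11, 2.80 and 3.73 in water. The groups did not overlap, with differences of 1.16, 1.82 and 1.30 (mean 1.43 ± 0.34, 2.69-fold). AT3G19120 is related to transposases of the PIF and Harbinger type. Its level was 1.05, 1.74 and 2.49 times the array median in proline and 0.322, 0.706 and 1.14 in water, with differences of 0.78, 2.05 and 1.10. Proline sample 6 was within the range of the water samples.

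For 8 loci no role is given here. AT5G46560 had 13.5, 15.7 and 16.6 times the array median in proline, the narrowest spread of the 12 loci plotted by sample, and 2.21, 4.16 and 7.93 in water. The groups did not overlap, and the differences were 0.87, 2.69 and 1.99 (mean 1.85 ± 0.92, 3.60-fold). AT5G17280 had 1.46, 2.20 and 2.67 times the array median in proline and 0.716, 1.01 and 1.51 in water, with differences of 1.09, 0.98 and 1.32. Partners disagreed in water pair 3, and without water sample 5 the difference of pair 3 was 0.79. Here 5 of 6 proline samples lay above all water samples, and water sample 6 was the highest of its group.

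AT3G44570 and AT3G57440 showed no overlap between groups. AT3G44570 had 4.63 to 8.88 times the array median in proline and 1.91 to 3.79 in water, and AT3G57440 had 1.95 to 3.09 in proline and 0.959 to 1.37 in water. Their mean differences were 1.35 ± 0.67 and 0.96 ± 0.39. The other 3 loci with all values overlapped: AT3G56810 had 1.21 to 3.14 in proline and 0.301 to 1.35 in water, AT5G19050 had 0.430 to 1.72 in proline and 0.130 to 0.679 in water, and AT5G34870 had 0.731 to 1.58 in proline and 0.401 to 0.789 in water. Without water sample 1, AT5G19050 had a difference of -0.17 in pair 1.

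AT2G32470 was the single locus of the 24 with a value of 0, in water sample 5, which goes the way of the difference and is left out of it. The 6 proline samples had 0.402, 0.623 and 1.16 times the array median, and the 5 water samples above 0 had 0.0299, 0.424 and 0.685. Water sample 4 was far below the other 4 water samples above 0. Pair differences were 0.59, 2.12 and 0.87, and without water sample 4 that of pair 2 was 0.21.

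The 3 pairs did not contribute alike. The median difference of the 24 loci was 0.78 in pair 1, 1.60 in pair 2 and 1.30 in pair 3, and over the loci that passed the filter it was -0.03, -0.15 and -0.26. Single pairs put 25.8%, 27.8% and 23.2% of the 608 loci at 0.5 or higher. The smallest of a member's 3 differences fell in pair 1 for 15 of the 24 loci, and the largest fell in pair 2 for 16. In water, pair 1 had the highest pair mean of its group for 13 of the 24 loci, against 31.6% of all loci. In proline, pair 1 had the highest pair mean for 3 of the 24 loci, against 30.3% of all loci. For the smallest and the largest difference no share over all loci was computed. The rule had used these pair means, so these counts are description only and do not set the 24 loci apart.

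**Figure D3:**
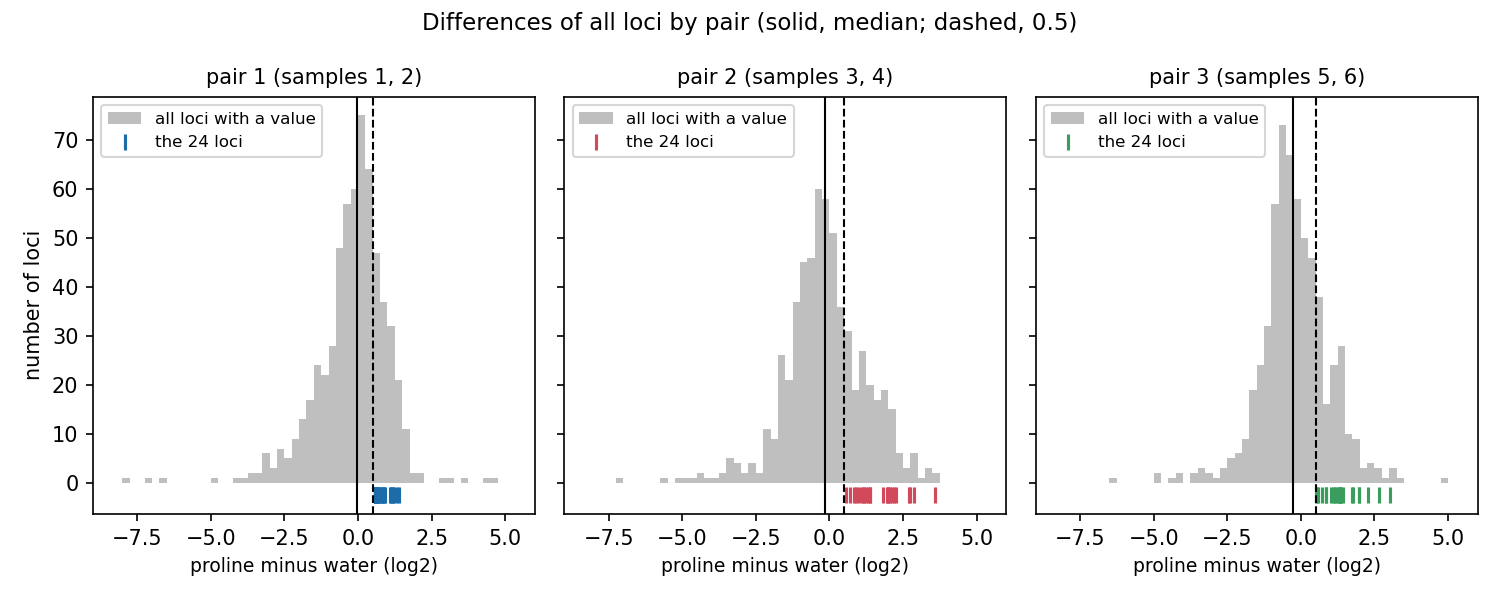
Number of loci (y axis) by proline minus water difference (x axis, log2, median-centred arrays) in pairs 1, 2 and 3, with the 24 loci as coloured ticks under the bars. The solid lines, at -0.03, -0.15 and -0.26, are medians over all loci with a value in that pair and the dashed line is the threshold of 0.5, to the right of which every tick lies.

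In 8 of the 24 loci the largest difference exceeded the smallest by over 1.5 log2 units. They were AT2G30100, AT1G49850, AT2G23160, AT5G46560, AT4G30150, AT5G19050, AT3G56810 and AT2G32470. All 8 had their smallest difference in pair 1, and in all 8 the pair means varied more in water than in proline. In 7 of the 8, AT5G19050 being the exception, the water mean was highest in pair 1. Over the 24 loci, the range of the 3 pair means had a median of 0.77 log2 units in proline and 1.03 in water, against 1.03 in proline and 1.13 in water over the loci that passed the filter. The differences of 6 loci stayed within 0.5 log2 units of each other over the pairs. Leaving 1 sample out of a pair moved a pair difference by over 1.5 times in 13 of the 24 loci. Besides those given with their genes above, such differences included 0.30 for FATB without proline sample 6 and 0.09 for AT5G34870 without water sample 5, both in pair 3. They were 0.46 for AT3G19120 without proline sample 1 and 0.45 for AT3G56810 without water sample 2, both in pair 1, and 0.81 in pair 2 for AT3G23940 without proline sample 4. Partners of a pair differed by a median of 0.28 log2 units in the 24 loci and of 0.36 over the loci that passed the filter. The ranges of pair means and the partner differences come from the values that the rule had used. They are description only and do not set the 24 loci apart.

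**Figure D4:**
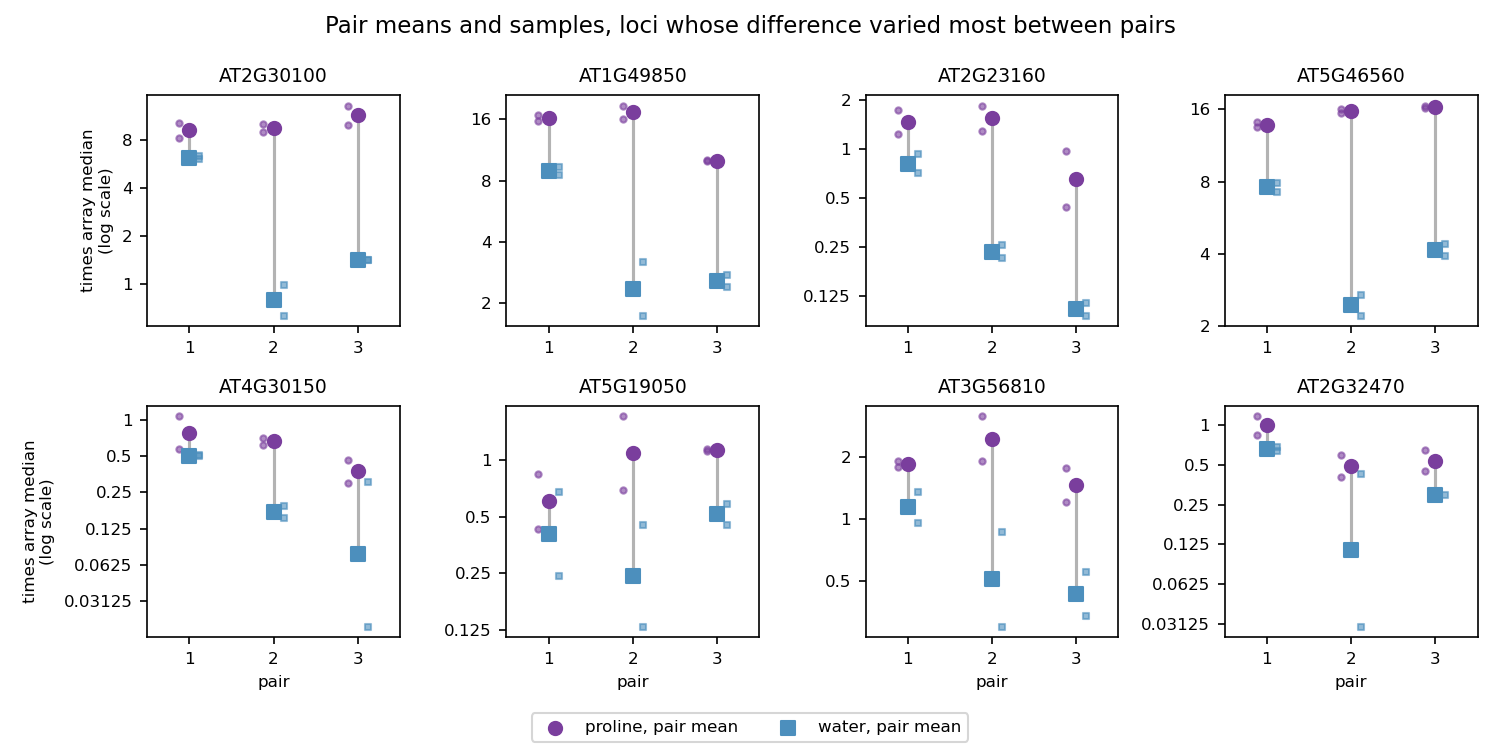
Pair means (large symbols) and samples (small symbols) in multiples of the array median (y axis, log scale, its range set for each gene) in pairs 1, 2 and 3 (x axis) for the 8 loci whose difference varied most between pairs. Grey bars join the proline and the water mean of a pair; for AT2G30100 the proline means are 9.21, 9.49 and 11.5, while the water means are 6.20, 0.793 and 1.42.

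The 3 loci nearest below the threshold were chosen by count, and others followed closely. AT5G11650 had a smallest difference of 0.49 in pair 1, with 1.69 and 2.27 in pairs 2 and 3, and levels of 1.19, 2.31 and 2.66 times the array median in proline against 0.171, 0.724 and 1.72 in water. MAMI (AT5G54110), named in the gene table as membrane-associated and mannitol-induced, had differences of 0.76, 0.48 and 0.59, with 2.71, 3.70 and 4.14 in proline against 1.92, 2.40 and 2.70 in water and no overlap. AT2G37750 had differences of 0.49, 1.83 and 0.47, with 1.31, 2.03 and 3.91 in proline against 0.741, 1.08 and 1.65 in water. Just inside it lay FATB at 0.53, AT5G34870 at 0.55 and AT3G04500 at 0.56.

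In limma over all 3045 features, with the 12 samples taken as independent, 17 of the 24 loci passed an adjusted p of 0.05 in the direction of proline, where 7.03% of all features did. The rule had used the same contrast, so this count says nothing further about the members. It was 16 of the 24 after quantile normalization (5.52% of all features) and 17 with the replicate number as a block (7.75%). With no normalization between arrays it was 0 (0.558%). In that fit 18 of the 24 had an unadjusted p under 0.05 and were higher in proline. Of all 3045 features, 561 had an unadjusted p under 0.05 in either direction. With the pair within its group as a random block, 5 of the 24 passed, against 2.07% of all features. They were AT1G50770, AT2G30100, AT3G44570, AT4G05070 and AT5G46560. With the mean of each pair as 1 sample, 0 of the 24 and 0.0% of all features passed in limma. In that fit 19 of the 24 had an unadjusted p under 0.05 and were higher in proline. The count over all features was 461 (15.1%), but in either direction, so the 2 counts are not like measures.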

How the data were processed

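Total RNA of 12 samples was measured on an expression array. The authors deposited 1 table of relative intensity for 3439 probes, from 0 upwards and on a linear scale as read from the values. How the arrays were scanned, dyed, background-corrected and normalized is not given in the sources used here. Signal over background was not available. The number of arrays sets the limit of precision, or the number of pairs if partners repeat a measurement of the same material. Of all values 8.43% were 0. The platform annotation, which can be old, names 692 probes with 1 gene, 870 with several and 1877 with none. Locus names were updated through gene identifiers to TAIR10.1, and 2 identifiers were not matched. Positions are left out, as no genome build is named.

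Values of 0 were treated as missing. Values above 0 were log2-transformed, centred on each array's median, and averaged over probes of a locus. Features with at least 4 values per group were fitted with limma 3.58.1 (statmod 1.5.0, R 4.3.3), without covariate, with Benjamini-Hochberg adjustment over all features and a threshold of 0.05. The fit was tested on simulated data with independent samples. That test cannot show how the fit behaves when partners of a pair are alike, as they are here. Plots used matplotlib 3.10.9 (Python 3.11.15). P-values measure the spread between samples, which may be technical.

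The replicate numbers are shared by both groups. For all 6 numbers the deviations of both samples from their group means correlated across features, with r from 0.12 to 0.21. This is a hint from the data, and not from the labels, that the numbers match a proline with a water sample. The main limma fit did not use the numbers, which entered a separate fit as a block.

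Full values were given for the 12 members with the largest smallest-pair difference, any member with a value of 0, the member nearest to the threshold and the 3 loci nearest below it. The members, the gene lists and these rules were chosen with earlier results of these data known. Sequences were not used here, and the planned search for promoter motifs was not run.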

Additional observations from a re-analysis of the deposited data

Results flagged for a closer look

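Each of the 24 loci gave a proline and a water group of values, 48 in all. In 4 of them the gap between 1 sample and its neighbour, divided by the range of the group, passed the 95% level of Dixon's test. Chance alone flags some 1 in 20 groups of independent values. Partners of a pair were alike here, so that rate may not hold. All values here are log2 multiples of the array median. Proline sample 6 lay at -0.12 for AT2G25830 (nearest sample 0.57), and proline sample 3 lay at 0.96 for AT3G23940 (nearest 1.80). Water sample 5 lay at -5.70 for AT4G30150 (nearest -2.72), and water sample 4 at -5.06 for AT2G32470 (nearest -1.76). Without these 2 water samples the log2 change was 0.97 for AT4G30150 and 0.41 for AT2G32470, against 1.63 and 1.21 with all samples.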

How the results depend on the processing

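With arrays centred on the median, 342 of 3045 features passed in limma, 62.6% of them higher in proline, and 17 of the 24 loci passed. The median change over all features was -0.16, and -0.04 when values of 0 were kept with 0.01 added. In that refit 452 of 3045 features passed in limma, 320 of them higher in proline, and 20 of the 24 loci. The share of calls higher in proline was 41.9% with quantile normalization and 54.1% with cyclic loess. It was 50% with the replicate block and 46.9% with the pair as a fixed block (770 features). With no normalization between arrays it was 85% (20 features, 0 of the 24 loci). In that limma fit 18 of the 24 loci had an unadjusted p under 0.05 and were higher. Among all 3045 features 561 had such a p in either direction. The replicate block gave 472 features and 17 of the 24 loci, so it moved neither count by over 1.5 times. With the pair as a random block (correlation 0.618) 80 features passed, 78.8% of them higher, and 5 of the 24 loci. With the mean of each pair as 1 sample 0 features passed in limma. Leaving out 1 sample gave 210 to 318 features of 2890 to 3023 tested, with 142 to 205 of them higher in proline. Counted only where higher, 11 to 15 of the 24 loci passed. The features were 210 without water sample 3 (142 of 3015 higher) and 224 without water sample 4. The count of 11 loci came without water sample 3 or without proline sample 4 (168 of 2919 features higher). Leaving out a pair was chosen after seeing the data. Without pair 2, 22 of 2993 features passed in limma, 17 of them higher in proline, and 0 of the 24 loci. In that fit 15 of the 24 loci had an unadjusted p under 0.05 and were higher. Among its features 551 had such a p in either direction. Without pair 3, 225 of 2956 features passed, 147 of them higher, and 8 of the 24 loci. The causes were not tested.

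Of the 24 loci, 22 met the threshold of the rule again with quantile normalization and with cyclic loess, and 23 with none. Lost were AT2G30100 and FATB with quantile normalization, AT2G30100 and AT3G44570 with cyclic loess, and AT3G04500 with none. With values of 0 kept and 0.01 added 23 of the 24 were kept, with AT5G34870 lost, and 47 of the 608 loci met the threshold. Leaving out 1 sample kept 20 to 24. With each replicate number on its own in place of pair means 12 were kept, and with a threshold of 0.6 18 were. For 12 of the 24 loci a pair difference came under 0.5 without 1 of its samples. In 623 refits over 26 settings no log2 change of the 24 loci turned round, as the choice of loci favours, and the values ran from 0.41 to 3.30. Several settings, such as the block fits and the mean of each pair, leave the change of a locus with a value in every sample as it was. Those refits repeat the main value and are no separate checks.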
